A study of Homo sapiens with 10 samples.

Results

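MHC class I presentation genes were examined in ARPE-19, an established human cell line of retinal pigment epithelium (RPE), the pigmented layer behind the photoreceptors. The 9 genes were HLA-B, HLA-C, HLA-E, HLA-F, B2M, TAP1, TAP2, TAPBP and NLRC5. They were found by their symbols among the 22626 rows of the deposited tables, and all 9 had counts high enough to be tested with 14936 rows in all. Total RNA of 5 control and 5 high glucose libraries was sequenced. Both groups grew in DMEM with fetal bovine serum and antibiotics and were then kept for 48 h in their test medium. The control medium held 5.5 mM glucose and 32 mM mannitol, a sugar alcohol added to match osmolarity, and the high glucose medium held 37.5 mM glucose. The comparison therefore asked how these genes differed between high glucose and an osmotically balanced control. The labels do not say whether the libraries came from separate cultures, so the p-values measure the spread between these libraries, which may be technical. High glucose libraries are called HG_1 to HG_5 after the columns of the tables.

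Class I molecules show peptides from inside a cell to CD8 T cells and natural killer cells. A heavy chain (such as HLA-B or HLA-C, or the less variable HLA-E and HLA-F) pairs with the light chain β2-microglobulin, the product of B2M. Peptides cut by the proteasome enter the endoplasmic reticulum through the transporter of TAP1 and TAP2, and tapasin, the product of TAPBP, bridges this transporter to the empty heavy chain. NLRC5 is the transactivator of the class I promoters, where it works with the RFX, CREB/ATF and NF-Y factors, and interferons raise most genes of the pathway. RPE helps to maintain the immune privilege of the eye.

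The promoters of HLA-B, HLA-C, B2M and TAP1 are shown because they stand for the heavy chains, the light chain and the transporter, and because class I genes are known to be switched on through shared promoter boxes. RefSeq (GRCh38.p14) gave a promoter for 7 of the 9 members. Each run below is the 250 bases before the annotated start, 5′ to 3′ on the gene's strand. Capitals mark matches on either strand to a pair of GAAA with 2 bases between them or the shorter GAA and GAAA with 2 bases between (letters of interferon response elements), to GGG, 2 bases, TT, 1 base and CC (letters of NF-κB sites), to TGACG (letters of CREB/ATF sites) and to ATTGG (the reverse of the CCAAT box of NF-Y). Matches may overlap. Not every promoter held every box, as TAP1 had no TGACG and HLA-C no match to the NF-κB letters.
HLA-B (chr6:31357180-31357429, minus strand): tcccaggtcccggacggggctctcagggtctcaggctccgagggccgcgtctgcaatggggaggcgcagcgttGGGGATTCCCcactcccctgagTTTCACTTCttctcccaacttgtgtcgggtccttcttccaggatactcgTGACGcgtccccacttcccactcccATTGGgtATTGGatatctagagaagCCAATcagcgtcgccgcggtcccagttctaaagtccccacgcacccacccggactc
HLA-C (chr6:31272093-31272342, minus strand): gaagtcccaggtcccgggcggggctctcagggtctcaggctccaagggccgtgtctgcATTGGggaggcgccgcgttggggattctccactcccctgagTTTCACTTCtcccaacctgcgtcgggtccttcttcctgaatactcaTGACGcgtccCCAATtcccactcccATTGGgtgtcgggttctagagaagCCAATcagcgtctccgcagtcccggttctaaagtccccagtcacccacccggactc
B2M (chr15:44711267-44711516, plus strand): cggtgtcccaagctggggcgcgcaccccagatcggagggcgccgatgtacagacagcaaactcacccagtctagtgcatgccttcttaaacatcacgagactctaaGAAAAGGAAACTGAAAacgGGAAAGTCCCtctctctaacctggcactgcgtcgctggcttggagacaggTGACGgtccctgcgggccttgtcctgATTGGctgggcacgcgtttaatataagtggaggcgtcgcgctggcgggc
TAP1 (chr6:32853705-32853954, minus strand): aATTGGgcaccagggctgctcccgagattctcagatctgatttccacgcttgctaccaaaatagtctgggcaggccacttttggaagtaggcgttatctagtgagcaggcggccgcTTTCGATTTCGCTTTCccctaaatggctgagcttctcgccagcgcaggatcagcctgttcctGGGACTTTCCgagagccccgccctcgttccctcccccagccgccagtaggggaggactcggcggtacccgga

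In HLA-B the interferon-type match began 155 bases before the start, and in HLA-C it began 151 bases before it. Both heavy chain genes held TGACG at 106 and 105 bases before the start, and an ATTGG match at 56 bases before it. B2M carried its overlapping matches to the longer interferon-type letters at 144 and 138 bases, and TAP1 at 134 and 128 bases. An interferon-type match of either length was present in all 7 member promoters in the table, against 10.6% of 35116 promoters of the same length (250 bases before to 50 after the start). The longer form was in 5 of the 7 (3.57% of all promoters), the NF-κB letters in 4 (5.68%), TGACG in 4 (24.6%) and ATTGG in 5 (34.6%). HLA-B and HLA-C held only the shorter form. The letters were chosen after these promoter sequences were seen, so the shares cannot test whether the members hold more matches than other promoters. These matches are a description of the letters and do not show that a factor was bound.

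In the deposited FPKM values, which are corrected for transcript length, the light chain stood highest and the transporter lowest. In the control group B2M averaged 250 ± 26.2 FPKM (SD, n = 5), HLA-C 167 ± 22.4 FPKM and HLA-B 49.7 ± 6.71 FPKM. TAPBP followed with 11.9 ± 1.27 FPKM, HLA-E with 6.69 ± 0.598 FPKM and NLRC5 with 5.10 ± 0.807 FPKM. HLA-F (1.82 ± 0.439 FPKM), TAP1 (1.48 ± 0.779 FPKM) and TAP2 (0.479 ± 0.105 FPKM) were the lowest of the 9. High glucose libraries had the same order, from B2M at 294 ± 13.1 FPKM down to TAP2 at 0.405 ± 0.0829 FPKM. Among neighbours in the control order, the library ranges of HLA-E and NLRC5 overlapped, as did those of HLA-F and TAP1. In high glucose no neighbours overlapped.

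B2M was the only member that passed the test between the groups. Its CPM (counts scaled to a common library size with TMM factors) were 323, 283, 285, 275 and 282 in HG_1 to HG_5, and 215, 283, 257, 238 and 226 in control replicates 1 to 5. The other 4 control libraries lay below every high glucose library, and control replicate 2 lay inside the high glucose range. The mean was 244 ± 26.6 CPM in control and 290 ± 19.0 CPM in high glucose (SD, n = 5 each). This made a log2 fold change of 0.25 (SE 0.076, 95% interval 0.082 to 0.42, adjusted p = 0.0485, Benjamini-Hochberg over all rows tested, edgeR quasi-likelihood test). The two-sided exact permutation test of its log2 CPM gave p = 0.0238, and this design cannot go below 0.00794. The call sat close to the threshold and was lost in 11 of 22 alternatives, over which the adjusted p ran from 0.00451 to 0.177. It was lost on leaving out any library other than control replicate 2, with a log2 fold change of 0.21 to 0.27 in those fits. The share of all rows called in them was 19.9% without HG_1, 11.3%, 10.9%, 11.9% and 11.9% without HG_2 to HG_5, and 11.1%, 12%, 11.8% and 11.5% without control replicates 1, 3, 4 and 5. Without control replicate 2 the log2 fold change was 0.31 (adjusted p = 0.00935 by edgeR).

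Of the 9 members 1 was called higher and 0 lower, against 15.4% of all rows called (7.62% higher and 7.8% lower). That is a share of 11.1%, near the background, and only B2M reached an unadjusted p under 0.05. The median log2 fold change was 0.025 over the 9 members and 0.0013 over all rows tested. No member had groups free of overlap, against 13.6% of all rows.

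**Figure D1:**
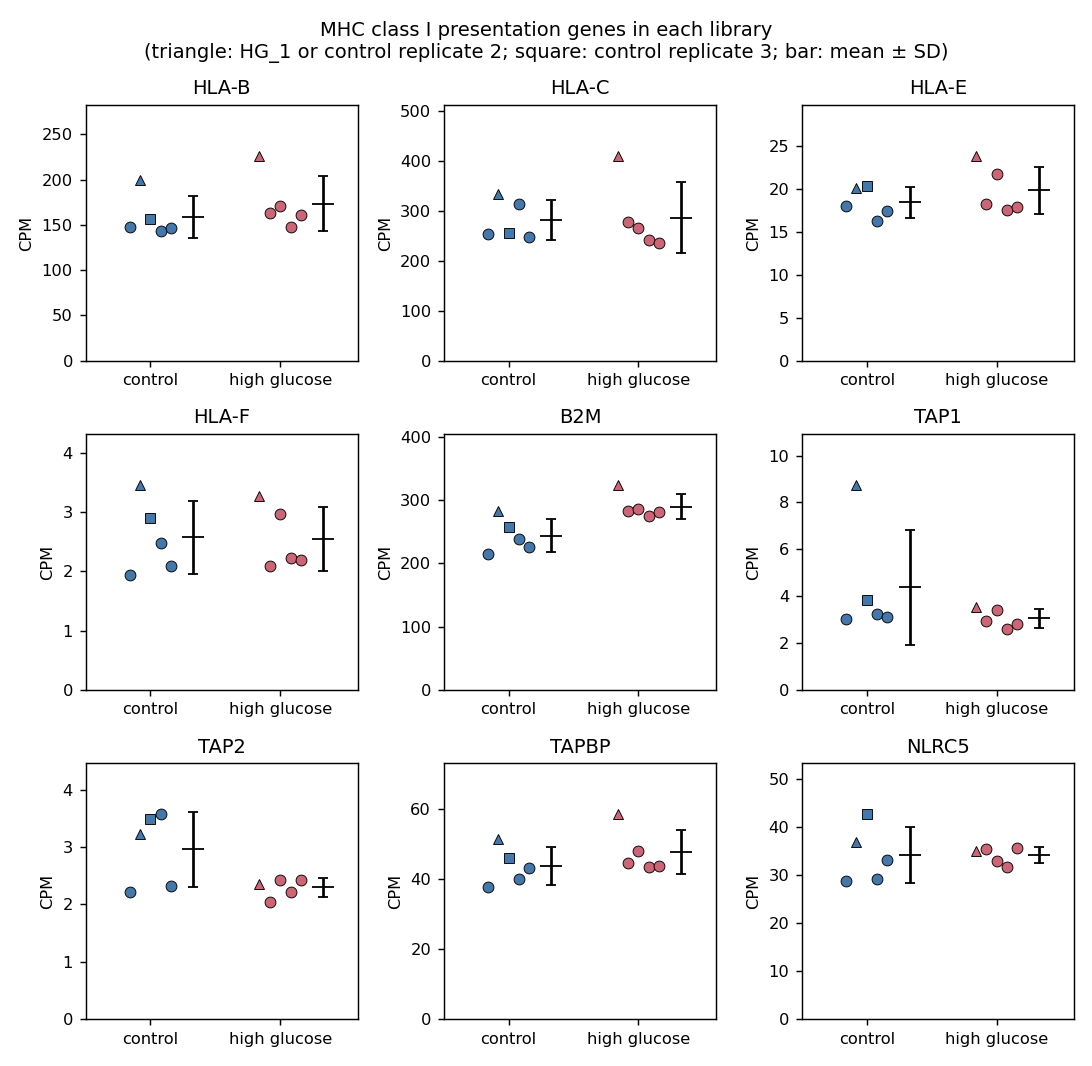
CPM (y axis, from 0) of the 9 members in each control (blue) and high glucose (red) library, with the group mean ± SD (n = 5) as a bar; triangles mark HG_1 and control replicate 2, squares control replicate 3. The groups overlap for every member, B2M is higher in high glucose except for control replicate 2, and TAP1 has a single high library at 8.72 CPM.

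Among the heavy chains, which bind the peptide, none passed the test. HLA-B had 226, 163, 170, 147 and 160 CPM in HG_1 to HG_5, and 148, 199, 157, 143 and 147 CPM in control replicates 1 to 5. HG_1 and control replicate 2 were the high libraries of their groups and the rest overlapped. Its log2 fold change was 0.13 (SE 0.12, 95% interval -0.15 to 0.40, edgeR adjusted p = 0.571). HLA-C, a main ligand of natural killer cell receptors, had 409, 277, 265, 241 and 236 CPM in HG_1 to HG_5, and 253, 334, 256, 314 and 247 CPM in control replicates 1 to 5. HG_1 again stood highest, followed by control replicates 2 and 4. Its log2 fold change was 0.025 (SE 0.15, 95% interval -0.31 to 0.36, edgeR adjusted p = 0.941), and its sign turned in 7 of 22 alternatives.

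HLA-E, whose product presents leader peptides of other class I chains to NKG2A receptors, differed little between the groups compared with its spread. It had 23.8, 18.3, 21.7, 17.6 and 17.9 CPM in HG_1 to HG_5, and 18.0, 20.2, 20.4, 16.3 and 17.5 CPM in control replicates 1 to 5. The log2 fold change was 0.10 (SE 0.10, 95% interval -0.12 to 0.33, edgeR adjusted p = 0.577). HLA-F, a chain mostly held inside the cell, had 3.27, 2.08, 2.96, 2.22 and 2.19 CPM in HG_1 to HG_5, and 1.94, 3.45, 2.91, 2.48 and 2.09 CPM in control replicates 1 to 5. Its libraries rested on 64 to 154 counts each. The log2 fold change was -0.016 (SE 0.20, 95% interval -0.47 to 0.43, edgeR adjusted p = 0.970), with the sign turned in 10 of 22 alternatives.

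Of the transport and loading members, TAP1, TAP2 and TAPBP, none passed the test. TAP1 had 3.53, 2.93, 3.41, 2.58 and 2.80 CPM in HG_1 to HG_5, and 3.00, 8.72, 3.82, 3.24 and 3.12 CPM in control replicates 1 to 5. Control replicate 2, with 389 counts, was far above the other 9 libraries, which held 85 to 159 counts. With it, the log2 fold change of TAP1 was -0.52 (SE 0.30, 95% interval -1.17 to 0.13, edgeR adjusted p = 0.282). It was -0.11 without control replicate 2 (edgeR adjusted p = 0.672). TAP2 had 2.36, 2.04, 2.43, 2.22 and 2.43 CPM in HG_1 to HG_5, and 2.21, 3.23, 3.49, 3.57 and 2.31 CPM in control replicates 1 to 5. Control replicates 2, 3 and 4 were above every high glucose library, and control replicates 1 and 5 were inside the high glucose range. TAP2 had a log2 fold change of -0.37 (SE 0.17, 95% interval -0.74 to 0.0065, edgeR adjusted p = 0.184).

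TAPBP had 58.4, 44.5, 48.0, 43.4 and 43.7 CPM in HG_1 to HG_5, and 37.6, 51.5, 45.9, 40.0 and 43.1 CPM in control replicates 1 to 5. Its log2 fold change was 0.13 (SE 0.10, 95% interval -0.10 to 0.36, edgeR adjusted p = 0.489). NLRC5, the transactivator, had 34.9, 35.4, 32.8, 31.7 and 35.5 CPM in HG_1 to HG_5, and 28.6, 36.9, 42.6, 29.1 and 33.1 CPM in control replicates 1 to 5. The high glucose libraries all lay between the lowest and highest controls. NLRC5 had a log2 fold change of 0.00024 (SE 0.10, 95% interval -0.23 to 0.23, edgeR adjusted p = 0.999).

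Ratios of counts within a library do not depend on how libraries are scaled. The TAP1 to TAPBP ratio sets the transporter against the protein that bridges it to the heavy chain. It was 0.0605, 0.0659, 0.0711, 0.0595 and 0.0640 in HG_1 to HG_5, and 0.0799, 0.169, 0.0832, 0.0810 and 0.0724 in control replicates 1 to 5. The groups did not overlap, and the mean log2 ratio was lower in high glucose by -0.52 (two-sided exact permutation p = 0.00794, the smallest possible; 0.0238 adjusted over the 3 ratios). The separation was narrow. The exact 95% binomial interval of the highest high glucose ratio, 0.0599 to 0.0838 in HG_3, held the lowest control ratio, which had an interval of 0.0605 to 0.0860 in control replicate 5. These intervals cover counting error only. The log2 difference was -0.30 without control replicate 2. Since the groups do not overlap, leaving out any library must leave them apart, so those fits show nothing of stability. With the GC and length trend removed, as described below, the ratios still did not overlap (0.0583 to 0.0706 in high glucose, 0.0734 to 0.166 in control). TAP1 and TAPBP were not called on their own, and the log2 fold change had a negative sign for TAP1 and a positive sign for TAPBP.

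The heavy chain to B2M ratio, with HLA-B, HLA-C, HLA-E and HLA-F summed, was 2.05, 1.63, 1.61, 1.48 and 1.48 in HG_1 to HG_5, and 1.95, 1.97, 1.70, 2.00 and 1.83 in control replicates 1 to 5. HG_1 stood above all controls and the other 4 high glucose libraries below all of them. The log2 difference was -0.20 (exact permutation p = 0.0714, adjusted p = 0.107). Without HG_1 it was -0.29 (exact permutation p = 0.0159). The ratio sets GC-rich transcripts against the GC-poor B2M, and the order of the libraries changed with the GC and length trend removed. HG_1 then had the lowest ratio of its group (1.52) and control replicate 2 lay below every high glucose library (1.52). The log2 difference in that setting was -0.15 (exact permutation p = 0.159), and -0.12 without HG_1 (exact permutation p = 0.286). The TAP1 to TAP2 ratio ran from 1.15 to 1.49 in high glucose and from 0.907 to 2.70 in control, where control replicate 2 was the highest. Its log2 difference was -0.056 (exact permutation p = 0.881), and 0.19 without control replicate 2.

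**Figure D2:**
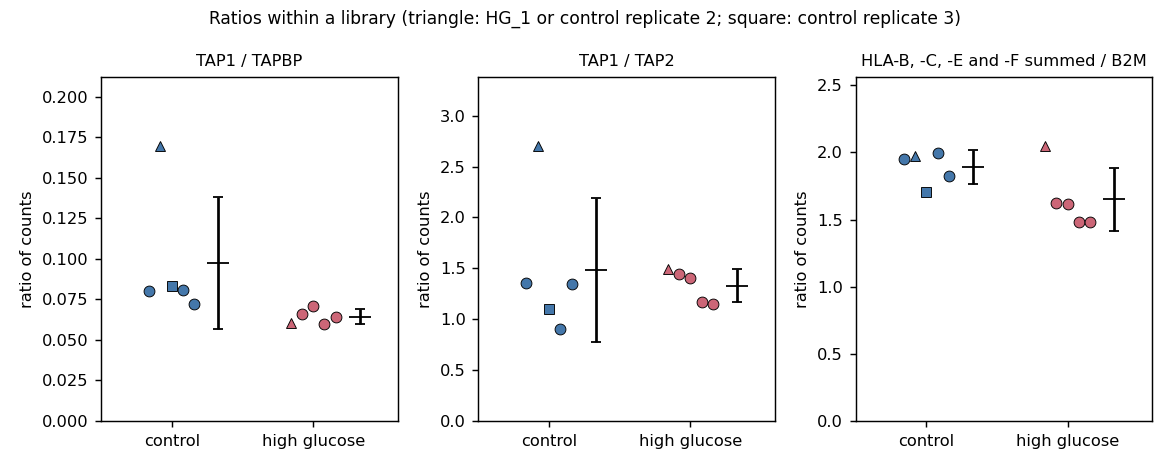
Ratio of counts within each library (y axis, from 0) for TAP1 to TAPBP, TAP1 to TAP2 and the summed heavy chains to B2M, in control (blue) and high glucose (red), with group mean ± SD (n = 5); triangles mark HG_1 and control replicate 2, squares control replicate 3. TAP1 to TAPBP lies at 0.0711 or less in high glucose and at 0.0724 or more in control, and HG_1 stands apart in the heavy chain to B2M ratio at 2.05.

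Most members were high in the same libraries within each group. HG_1 held the highest value of its group for 7 of the 9 members, all but TAP2 and NLRC5. Control replicate 2 did so for 6 of the 9, all but HLA-E, TAP2 and NLRC5. Control replicate 1 was the lowest of its group for 6 members and HG_4 for 6. HG_1 and control replicate 2 were also the libraries whose reads leaned to GC-rich transcripts. The slope of log2 CPM, set against the mean of all libraries, on GC content was 0.188 and 0.170 per 10 points in these libraries, and -0.0916 to -0.0052 in the other 8. HLA-B, HLA-C, HLA-E, HLA-F, TAP1, TAPBP and NLRC5 have GC contents of 54.8% to 60.0%, TAP2 has 49.1% and B2M 39.4%.

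With the GC and length trend of every library removed, the spread of several members shrank. HLA-B had 159 ± 23.2 CPM in control and 173 ± 30.5 CPM in high glucose before the correction, and 158 ± 7.05 and 170 ± 7.68 CPM after it (SD, n = 5 each). In that fit no member was called, against 29.3% of the 13538 rows, with 2 members at an unadjusted p under 0.05 by edgeR. HLA-B came to a log2 fold change of 0.10 (edgeR adjusted p = 0.0932) and TAPBP to 0.16 (edgeR adjusted p = 0.0642). B2M, a GC-poor transcript, went the other way. Its SD rose to 33.3 CPM in control and 32.0 CPM in high glucose, HG_1 moved up to 339 CPM and control replicate 2 to 303 CPM, and its log2 fold change was 0.18 (edgeR adjusted p = 0.177). TAP1 in control replicate 2 was still 7.75 CPM after the correction, against 3.11 to 3.85 CPM in the other controls.

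Interferon-stimulated genes set control replicates 2 and 3 apart. Of a list of 31 such genes, 27 were tested, and 11 were called lower and 0 higher in high glucose (15.4% of all rows were called), with a median log2 fold change of -1.04. GBP1, an interferon-induced GTPase, fell by 0.92 on the log2 scale (edgeR adjusted p = 0.000102), RSAD2, the antiviral enzyme viperin, fell by 3.53 (edgeR adjusted p = 0.00774), and IFI44L fell by 1.92 (edgeR adjusted p = 0.00865). Without control replicates 2 and 3 these values were -0.93, -1.95 and -1.01. The 3 genes were called on leaving out each library, while the list's count fell to 7 without control replicate 2 and to 5, 3, 4 and 3 without HG_2, HG_3, HG_4 and HG_5 (10.9% to 16.6% of all rows were called in these 5 fits). The list's median deviation from the mean of the 10 libraries was 1.20 log2 units in control replicate 3 and 0.89 in control replicate 2, against -0.47 to 0.0071 in the other 8. Without those 2 controls 7 genes of the list were called, 2 higher (IFIT2 and IFIT3, named after their values were seen) and 5 lower (12.1% of all rows were called). NLRC5 was highest of all libraries in control replicate 3 (42.6 CPM) and next in control replicate 2 (36.9 CPM). Control replicates 1 and 4 were its lowest (28.6 and 29.1 CPM), below every high glucose library. Their interferon deviations were -0.14 and 0.0071, above those of all high glucose libraries. After subtraction of group means, the Pearson r of log2 CPM with this deviation ran from 0.154 for HLA-C to 0.906 for NLRC5 among the members. TAP2 was at 3.49 and 3.23 CPM in control replicates 3 and 2, and at its highest, 3.57 CPM, in control replicate 4. Without them, the log2 fold change was 0.36 for B2M (edgeR adjusted p = 0.00858), 0.17 for NLRC5 (edgeR adjusted p = 0.166), -0.031 for TAP1 (edgeR adjusted p = 0.927) and -0.23 for TAP2 (edgeR adjusted p = 0.516). The part of the GC trend and of the interferon genes in the members' values was not tested.

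**Figure D3:**
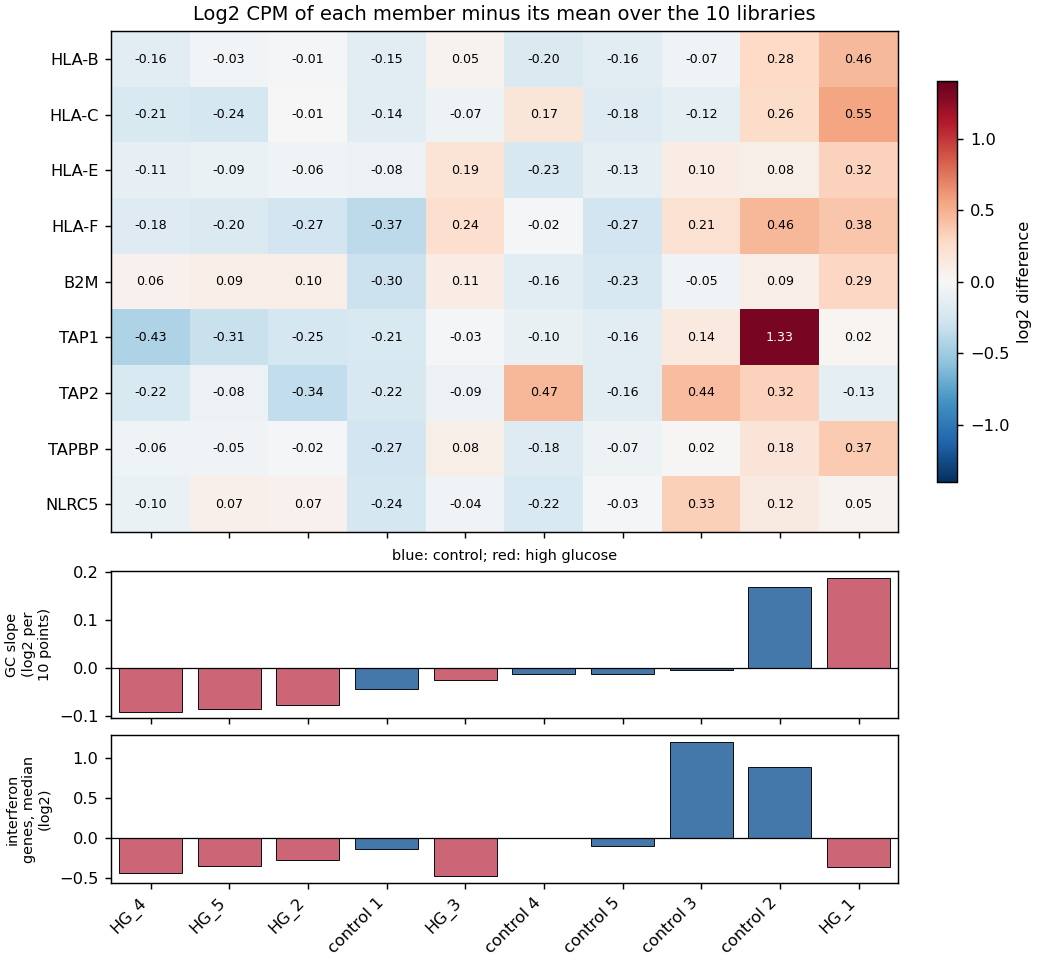
Top, log2 CPM of each member (rows) in each library (columns) minus the member's mean over the 10 libraries; middle, each library's slope of log2 CPM on GC content per 10 points; bottom, its median deviation over the interferon-stimulated genes in log2 units (blue, control; red, high glucose; columns ordered by GC slope). HG_1 and control replicate 2, at the right with slopes of 0.188 and 0.170, are high for most members, and TAP1 in control replicate 2 is the strongest deviation.

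The rest of the class I pathway was read from a list of 18 further genes, of which 16 were tested and 4 called, 1 higher and 3 lower, a share of 25% against 15.4% of all rows. MICA, a stress-induced ligand of the NKG2D receptor, rose in high glucose. It had 33.5, 30.6, 31.0, 27.7 and 19.0 CPM in HG_1 to HG_5, and 13.2, 19.8, 21.9, 19.3 and 18.3 CPM in control replicates 1 to 5. HG_5 lay inside the control range and the other 4 high glucose libraries above it, and the log2 fold change was 0.61 (SE 0.16, edgeR adjusted p = 0.0274). The call of MICA was lost without HG_2, HG_3, HG_4 or control replicate 1, 4 or 5, at log2 fold changes of at least 0.51. HLA-G was at 0 counts in all 10 libraries, which allows a level of up to 3 counts, or 0.0669 to 0.0912 CPM depending on the library.

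Of 5 loading and folding genes 2 were called lower (40%), and of 7 peptide supply genes 1 (14.3%), against 7.8% of all rows called lower and 15.4% called either way. CALR, which encodes the chaperone calreticulin of the loading complex, fell by 0.51 on the log2 scale (SE 0.077, edgeR adjusted p = 0.00142) with no overlap between the groups. PDIA3, the disulfide isomerase ERp57 bound to tapasin, fell by 0.21 (SE 0.043, edgeR adjusted p = 0.00769). PSME1, a subunit of the PA28 activator of the proteasome, fell by 0.42 (SE 0.089, edgeR adjusted p = 0.00924), from 131 to 143 CPM in control down to 80.8 to 118 CPM. These 3 genes were called lower on leaving out each of the 10 libraries. CANX (-0.12, edgeR adjusted p = 0.432), UGGT1 (-0.30, edgeR adjusted p = 0.0617), TAPBPL (0.036, edgeR adjusted p = 0.866) and PSME2, the other PA28 subunit (-0.23, edgeR adjusted p = 0.236), were not called. The immunoproteasome subunits that cut peptides for class I were not called. Their log2 fold changes were 0.087 for PSMB8 (edgeR adjusted p = 0.790), 0.067 for PSMB9 (edgeR adjusted p = 0.921, on 5 to 14 counts a library) and -0.14 for PSMB10 (edgeR adjusted p = 0.632). With the GC and length trend removed, 9 of the 16 genes were called, 3 higher and 6 lower, against 29.3% of rows. CANX (-0.13, edgeR adjusted p = 0.0328), UGGT1 (-0.25, edgeR adjusted p = 0.000392) and PSME2 (-0.26, edgeR adjusted p = 0.0040) were among the 6. With 1 surrogate variable in the model 9 were called, against 24.8% of rows, and without HG_1 it was 7, against 19.9% of rows.

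**Figure D4:**
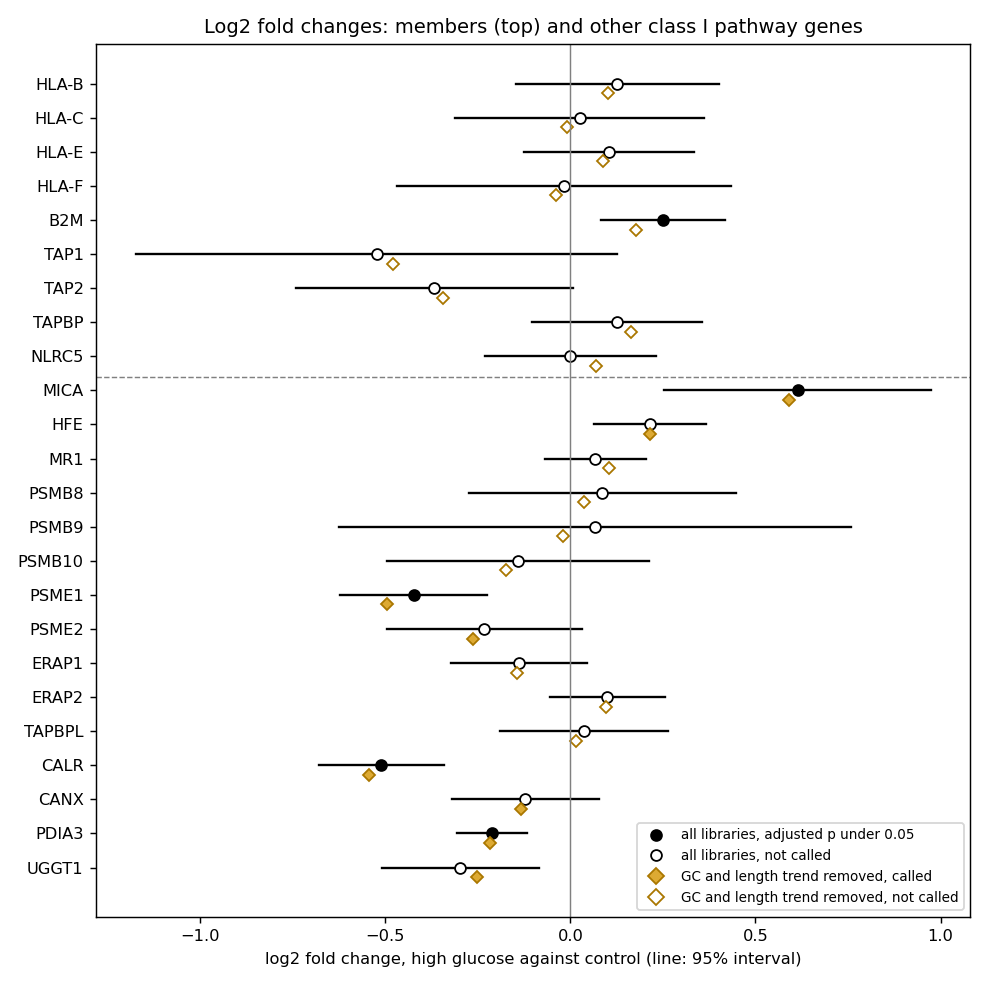
Log2 fold change (x axis, high glucose against control, n = 5 each) of the 9 members above the dashed line and other class I pathway genes below it; circles with 95% intervals are the fit on all libraries, diamonds the fit with the GC and length trend removed, and filled symbols have an adjusted p under 0.05. B2M at 0.25 is the only filled circle among the members and MICA at 0.61 the highest of all, while CALR, PSME1 and PDIA3 lie below 0.

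Among 23 regulators of class I genes, 22 were tested and 4 called, 1 higher and 3 lower, a share of 18.2% against 15.4% of all rows. RFX5, the DNA-binding subunit of the RFX complex, had 61.3 to 68.2 CPM in high glucose and 75.8 to 80.8 CPM in control. The groups did not overlap, and it fell by 0.24 on the log2 scale (SE 0.044, edgeR adjusted p = 0.00385). RFXAP, another subunit of that complex, rose by 0.36 (SE 0.10, edgeR adjusted p = 0.0352), and NFYB, a subunit of the CCAAT-binding NF-Y, fell by 0.20 (SE 0.058, edgeR adjusted p = 0.0365). RFX5 was called on leaving out any library, NFYB in 3 of the 10 such fits (without HG_1, HG_5 or control replicate 2) and RFXAP in 4 (without HG_1, HG_2 or control replicate 2 or 4). IRF1, which binds the interferon element of class I promoters, had a log2 fold change of -0.24 (edgeR adjusted p = 0.186). With the GC and length trend removed, 7 of the 22 regulators were called, 2 higher and 5 lower. That was a share of 31.8%, near the 29.3% of all rows called in that fit.

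In GRCh38 coordinates of GENCODE release 29, B2M is on chromosome 15 (44711487 to 44718877, plus strand), NLRC5 on chromosome 16 (56989485 to 57083531, plus strand) and the other 7 on chromosome 6. HLA-B (31269491 to 31357188, minus strand) has a long annotated model that spans HLA-C (31268749 to 31272130, minus strand) in part and several pseudogenes, and 12.2% of its 100-base windows are shared with the pseudogene AL671883.2. HLA-E (30489467 to 30494205, plus strand) and TAPBP (33299694 to 33314387, minus strand) overlap no other gene. TAP1 (32845209 to 32853978, minus strand) overlaps PSMB9 and PSMB8-AS1 on the opposite strand, and TAP2 (32821833 to 32838780, minus strand) shares 35.2% of its 100-base windows with AL669918.1, an overlapping gene model of the same strand. HLA-F (29722775 to 29738528, plus strand) shares 31.8% of them with overlapping pseudogene and antisense models, and TAP1 12.7% with PSMB8-AS1. Of 100-base windows of the reference transcripts, at most 0.6% were identical between a member and another class I gene of the table. Whether the counting used strand is not given in the sources used here, so reads of overlapping models cannot be told apart, and the HLA values carry the added uncertainty that the line's own alleles were not analysed here.

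Library totals ran from 32448991 to 45864176 counts. Of 11 listed RPE markers 8 were tested, 3 were called lower and 0 higher, a share of 37.5% against 15.4% of all rows (7.8% lower). KRT8 and KRT18, epithelial keratins, fell by 0.62 and 0.68 on the log2 scale, and PMEL, a pigment gene, fell by 0.72. BEST1 ran from 0.577 to 551 CPM within the control group. The summed level of the RPE list was 2831 to 3590 CPM in control and 1795 to 2468 CPM in high glucose, most of it KRT8 and KRT18. RLBP1, MITF, OTX2 and SERPINF1 had log2 fold changes of -0.32, -0.20, -0.12 and -0.12 and were not called (edgeR adjusted p = 0.0814 to 0.825). With the GC and length trend removed, RLBP1 (-0.36, edgeR adjusted p = 0.00906), MITF (-0.21, edgeR adjusted p = 0.00289) and OTX2 (-0.15, edgeR adjusted p = 0.0164) were called lower, against 14.8% of rows called lower. BEST1 was also called lower (-4.95, edgeR adjusted p = 0.0287), with 260 and 546 CPM in control replicates 1 and 4. The other controls had 0.570 to 5.17 CPM and the high glucose libraries 0.981 to 8.02 CPM. RPE65, a defining visual cycle enzyme, was at 0 counts in 9 of 10 libraries, and TTR was at 0 in all. Leukocyte markers summed to 5.39 to 7.65 CPM in control and 3.80 to 5.82 CPM in high glucose, nearly all of it CSF1R, with CD3E and AIF1 at 0 in all libraries (8 listed). Endothelial markers summed to 0.404 to 1.10 CPM and 0 to 0.713 CPM, with CDH5 at 0 (4 listed). In such bulk RNA, fewer cells of a kind and less RNA per cell cannot be told apart, and the part of these markers in the members' values was not tested.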

How the data were processed

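RNA of 5 control and 5 high glucose libraries was extracted with Trizol and prepared with a VAHTS Universal V6 kit. The submitters' processing notes name fastp 0.20.1, HISAT2 2.2.1 and GRCh38, and the counting program, annotation and strand setting are not given in the sources used here. The authors deposited raw read counts per gene without normalization, and FPKM values, divided by transcript length and library size, of the same libraries. Counts of rows passing filterByExpr (14936) were TMM scaled and tested with edgeR 4.0.16 (quasi-likelihood, R 4.3.3), group as the only term, and Benjamini-Hochberg adjustment over all rows. Log2 CPM used a prior count of 2. Ratios of counts, and log2 CPM of each member, were tested with a two-sided exact permutation test over 252 arrangements. GC content and length came from GENCODE release 29 transcripts, and trends were removed with lowess (span 0.3) as offsets. Alternatives were DESeq2 1.42.0, limma 3.58.1 on log2(FPKM + 1) and log2(FPKM + 0.1), 1 surrogate variable (sva 3.50.0), other scalings and filters, and libraries left out. The fits were tested on simulated counts.

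High glucose libraries carry letters in the titles and numbers in the columns, so the columns were assigned to the group and not to single samples. The members and lists were chosen with earlier results of these data known, and the motif letters after the promoter sequences were seen. All 9 members are named. From each other list, up to 3 called genes per direction with the smallest adjusted p are named, with PSMB8, PSMB9, PSMB10 and IRF1 whatever their value. Some listed genes enter the list counts, but their values are not reported here. Other genes were named after their values were seen. Dropping control replicates 2 and 3 together, and ratios with the GC and length trend removed, were chosen after seeing the data. With 32448991 to 45864176 counts per library, a count of 3 equals 0.0669 to 0.0912 CPM. Intervals of counts cover counting error only.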

Additional observations from a re-analysis of the deposited data

Results flagged for a closer look

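A library lay far from the other 4 of its group in 7 of 24 groups of 5 values examined (the 9 members and 3 ratios in each group), where chance gives about 1.2 if the groups were independent. They are not, since the ratios reuse the members' counts, the 3 TAP1 results rest on the same TAP1 value, and the members come from the same libraries. The libraries were HG_1 and control replicate 2 in every case. In control replicate 2, HLA-B was at 199 CPM (142.8 to 157.0 CPM in the other controls) and TAP1 at 8.72 CPM (3.00 to 3.82 CPM). Its TAP1 to TAP2 ratio was 2.70 (0.907 to 1.36 in the others) and its TAP1 to TAPBP ratio 0.169 (0.0724 to 0.0832). In HG_1, HLA-C was at 409 CPM (236.0 to 277.3 CPM in the other high glucose libraries) and B2M at 323 CPM (275.4 to 285.3 CPM). Its heavy chain to B2M ratio was 2.05 (1.48 to 1.63 in the others).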

How the results depend on the processing

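The TAP1 to TAPBP ratio kept its direction and its side of the threshold on FPKM values and with the GC and length trend removed, while leaving out a library could not change its call because the groups do not overlap. HLA-B, HLA-E, TAP1, TAP2 and TAPBP kept their direction, without being called, in all alternatives run for them, but not their size. On leaving out each library HLA-B ran from 0.017 (without HG_1) to 0.22 (without control replicate 2), HLA-E from 0.034 to 0.14, TAPBP from 0.046 to 0.19, TAP1 from -0.63 to -0.11 and TAP2 from -0.46 to -0.29, and TAP2 was -0.073 on log2(FPKM + 1). HLA-C, HLA-F and NLRC5 lay close to 0 and changed sign between settings. TAP2 fell below the FPKM minimum of 1 and had no value there. TAP1, TAP2 and HLA-F rest on the fewest counts (64 to 389 a library). No paired analysis was possible because the high glucose samples carry letters and their columns carry numbers that no label ties to the controls.

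On leaving out each library, the calls were 0 to 1 for the members, 3 to 7 for the other class I genes, 1 to 3 for the regulators, 3 to 13 for the interferon-stimulated genes and 0 to 0 for class II genes. From 10.9% to 19.9% of all rows were called in these fits. The log2 values in them ranged from 0.21 to 0.31 for B2M, -0.14 to 0.096 for HLA-C, -0.12 to 0.11 for HLA-F, -0.056 to 0.093 for NLRC5, -0.29 to -0.17 for the heavy chain to B2M ratio and -0.21 to 0.19 for the TAP1 to TAP2 ratio. Without HG_1, 7 other class I genes were called (19.9% of all rows). With no filter 0 members were called, against 11.1% of all rows (B2M 0.25, edgeR adjusted p = 0.0562). With the GC and length trend removed, calls were 0 for the members (B2M 0.18, HLA-C -0.0080), 9 for the other class I genes, 7 for the regulators and 1 for class II genes. In that fit 29.3% of all rows were called. With 1 surrogate variable 9 other class I and 17 interferon-stimulated genes were called (24.8% of all rows), HLA-C was -0.056 and NLRC5 -0.027. Library size alone called 2 regulators (15.4% of all rows). NLRC5 was -0.0012 with DESeq2, -0.0010 with RLE factors and -0.0012 with at least 10 counts in every library. On log2(FPKM + 1), with or without the FPKM minimum, limma called 3 interferon-stimulated genes (13.6% and, with the minimum, 15.9% of all rows), with HLA-F at 0.058 and NLRC5 at -0.012, and on log2(FPKM + 0.1) it called 5 (13.4%), with 0.081 and -0.012. Without HG_1 and control replicate 2, 7 other class I genes were called (27.1% of all rows), HLA-C was -0.067 and HLA-F 0.0072. Without control replicates 2 and 3, 2 regulators and 7 interferon-stimulated genes were called (12.1% of all rows) and HLA-F was 0.23. The causes of these changes were not tested.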

Other observations

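Class II presentation genes ranged from 0 counts to levels near those of the lowest class I genes. Of 11 listed genes, HLA-DPB1, HLA-DQA1, HLA-DQB1 and HLA-DOA were at 0 counts in all libraries. By edgeR 3 could be tested and 0 were called (15.4% of all rows), with 2 at an unadjusted p under 0.05. The DESeq2 fit held 7 and called 0 (19.9% of all rows). CIITA, the class II transactivator and a relative of NLRC5, had 6.60, 3.39, 3.94, 3.80 and 4.14 CPM in HG_1 to HG_5, and 2.70, 2.15, 2.55, 3.24 and 4.42 CPM in control replicates 1 to 5. Its log2 fold change was 0.54 (edgeR adjusted p = 0.160). CD74, the invariant chain, had a log2 fold change of -0.66 (edgeR adjusted p = 0.0873). With the GC and length trend removed it was called lower (-0.66, edgeR adjusted p = 0.0257), against 29.3% of rows called either way.

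The mean z-score of the 9 members over the 10 libraries was highest in HG_1 (1.23) and control replicate 2 (1.16) and lowest in control replicate 1 (-0.98). Among 13412 other tested genes with a symbol, those whose log2 CPM followed it most closely, by Pearson r over the 10 libraries, were WHRN (0.976), NFKB2 (0.971), NDUFB7 (0.969), MINK1 (0.968), ARRDC1 (0.959), ZP3 (0.952), UCK1 (0.9499) and B9D1 (0.949). After subtraction of the group means WHRN led again (0.987), followed by HSD17B2, TRIM26, NDUFB7, GALNS, NFKB2, C1QTNF6 and ERCC1. The points share libraries, depth and base composition, and r is given as a description.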
